A study of Mus musculus with 12 samples.

Results

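Matrix metalloproteinases and their tissue inhibitors were followed as 10 genes, 6 proteases (Mmp2, Mmp3, Mmp9, Mmp12, Mmp14 and Mmp19) and 4 inhibitors (Timp1, Timp2, Timp3 and Timp4), out of 30702 genes with a named transcript cluster. Each gene was found by its symbol in the array annotation, each had 1 transcript cluster, and 9 of the 10 passed the filter on dim signals. RNA of vessels from male C57BL/6 mice of 8 to 10 weeks was measured at day 0, without angiotensin II, and after 1, 3 and 7 days of angiotensin II, the pressor hormone of the renin-angiotensin system, infused by implanted pump at a rate of 1500 ng/kg/min. There were 3 arrays per group, labelled biological replicates, and 12 in all. The sources used here do not state which vessel was taken, how much tissue around it was kept or whether day 0 mice carried a pump. Whether each array holds 1 animal or a pool is not given there either, so the p-values measure the spread between arrays.

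Metalloproteinases are zinc enzymes made as inactive proenzymes, and between them they cut collagens, elastin, laminins, proteoglycans and many growth factors. TIMPs bind the active site of the enzyme in a complex of equal parts, and Timp2 also joins the membrane enzyme Mmp14 to proMmp2, which Mmp14 then activates. In the arterial wall this system is known for matrix turnover in hypertension and for elastin loss in aneurysm.

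All 8 smooth muscle markers (Myh11, Acta2 and others) and the 7 endothelial markers measured lay above the median of the negative control features on at least 1 array of every group. So did the 7 white adipocyte markers, except Lep at days 3 and 7. Signal over background was lower on each treated array than on the day 0 arrays. The median of positive minus that of negative control features was 2.56 to 2.64 log2 units at day 0, 1.94 to 2.51 at day 1, 1.83 to 2.11 at day 3 and 1.20 to 2.10 at day 7, where replicate 1 was lowest. For each treated day compared with day 0, a two-sided exact permutation test returned p = 0.1, and 3 arrays against 3 cannot give a smaller value. Among genes with a mean signal of 10 to 12, the median log2 change at day 7 against day 0 was -0.36, and among genes under 6 it was 0.26. It was 0.001 for a mean signal of 6 to 8, -0.26 for 8 to 10 and -0.09 for 12 to 14.

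Mmp3 rose at days 1 and 3, Timp1 at all 3 times and Mmp19 at days 3 and 7, whereas Mmp2 and Mmp14 rose at day 7, when Timp2 and Timp3 fell. In limma at an adjusted p under 0.05, 2 of the 9 members tested rose at day 1 and 0 fell, where 3.62% of the 22066 genes tested were called, 1.99% up and 1.63% down. At day 3, 3 members rose and 0 fell, where 11.8% of all genes were called, 4.61% up and 7.14% down. At day 7, 4 members rose and 2 fell, where 25.2% of all genes were called, 12.1% up and 13.2% down. The 3 comparisons share the day 0 arrays. The median log2 change of the 9 members was 0.49 at day 1, 0.46 at day 3 and 0.77 at day 7, beside 0.01, 0.08 and 0.10 for all genes. At an unadjusted p under 0.05 there were 5, 5 and 8 members at days 1, 3 and 7, where 16.4%, 28.2% and 43.4% of all genes passed, and Timp2 was among them each time.

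Between treated days the calls were fewer. For day 3 against day 1 limma called 0 members and 0% of all genes, and at an unadjusted p under 0.05 there were 0 members and 8.05% of all genes. For day 7 against day 3, 0 members rose and 1 fell, where 0.267% of all genes were called, 0.113% up and 0.154% down, and 6 members had an unadjusted p under 0.05, where 12.9% of all genes did. For day 7 against day 1, 2 members rose and 1 fell, where 4.79% of all genes were called, 1.88% up and 2.91% down, and 6 members had an unadjusted p under 0.05, where 30.9% of all genes did.

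Whether the arrays of a pair of groups overlapped was counted too, with no test. Against day 0 all 3 arrays lay above in 5 members at day 1 (11.8% of all genes), 4 at day 3 (23.3%) and 5 at day 7 (26.6%). They lay below in 1 member at day 1 (11.5%), 1 at day 3 (21.4%) and 2 at day 7 (20.5%). For day 3 against day 1 it was 0 members above (7.04%) and 0 below (6.78%), for day 7 against day 3 it was 2 above (7.04%) and 3 below (7.97%), and for day 7 against day 1 it was 3 above (14.1%) and 3 below (11.3%).

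**Figure D1:**
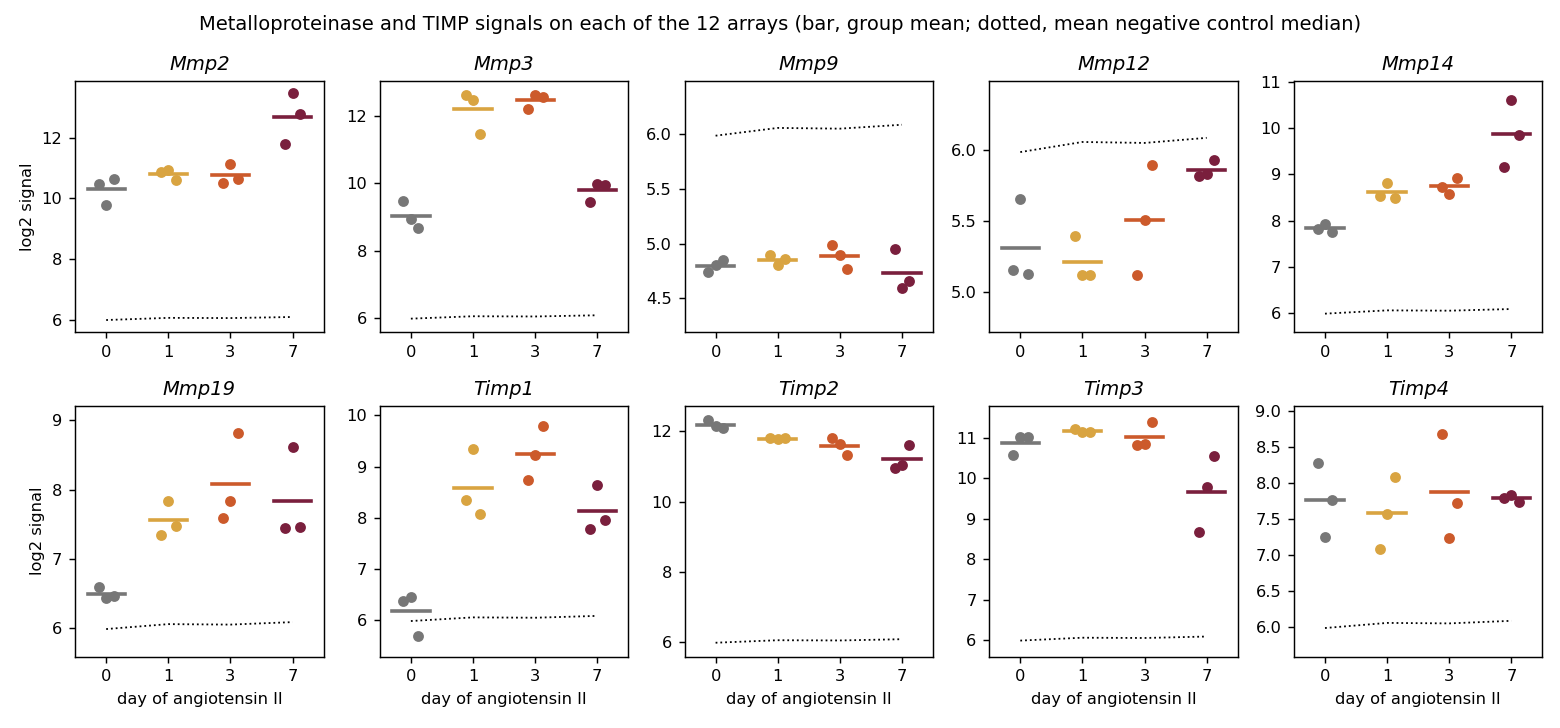
Log2 signal of each of the 10 genes on the 12 arrays against the day of angiotensin II. Points are arrays, bars the means of 3 arrays, and the dotted line the mean of the negative control medians; Mmp3 is high on the day 1 and day 3 arrays, Mmp2 and Mmp14 on the day 7 arrays, and Mmp9 and Mmp12 lie under the dotted line throughout.

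Sequence upstream of 4 of these genes is shown as examples. Mmp3 and Timp1 were called from day 1, and Mmp14 and Timp3 were called against day 0 only at day 7. Timp1 was still called at day 7, and Timp2, which fell at day 7 as well, is not printed. The RefSeq promoter table (GRCm38.p6) held 7 of the 10 genes, and Mmp2, Mmp9 and Mmp19 had no entry. Each line holds the 250 bases before the annotated start on the gene's own strand, at chr9:7445572-7445821 (+) for Mmp3, chrX:20869916-20870165 (+) for Timp1, chr14:54431348-54431597 (+) for Mmp14 and chr10:86300162-86300411 (+) for Timp3. Capitals mark matches to an AP-1 site (TGACTCA), a PEA3 site for ETS factors (AGGAAG) and a GC box (GGGCGG), each on either strand, and to a TATA box (TATAAA) on the gene's strand.
Mmp3: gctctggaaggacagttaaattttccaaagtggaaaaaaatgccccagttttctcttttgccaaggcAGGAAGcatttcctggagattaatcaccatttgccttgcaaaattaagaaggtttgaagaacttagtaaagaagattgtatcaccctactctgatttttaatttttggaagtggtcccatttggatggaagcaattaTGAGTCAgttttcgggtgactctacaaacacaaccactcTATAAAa
Timp1: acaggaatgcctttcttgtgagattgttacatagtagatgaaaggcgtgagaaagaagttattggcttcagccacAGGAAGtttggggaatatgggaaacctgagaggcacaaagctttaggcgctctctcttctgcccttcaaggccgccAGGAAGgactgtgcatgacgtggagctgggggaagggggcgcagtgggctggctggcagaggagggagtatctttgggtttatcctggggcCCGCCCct
Mmp14: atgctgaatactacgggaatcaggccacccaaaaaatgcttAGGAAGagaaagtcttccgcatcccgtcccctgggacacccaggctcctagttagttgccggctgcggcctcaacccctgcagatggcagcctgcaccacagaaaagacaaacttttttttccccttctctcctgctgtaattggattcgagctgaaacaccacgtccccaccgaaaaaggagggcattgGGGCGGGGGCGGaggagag
Timp3: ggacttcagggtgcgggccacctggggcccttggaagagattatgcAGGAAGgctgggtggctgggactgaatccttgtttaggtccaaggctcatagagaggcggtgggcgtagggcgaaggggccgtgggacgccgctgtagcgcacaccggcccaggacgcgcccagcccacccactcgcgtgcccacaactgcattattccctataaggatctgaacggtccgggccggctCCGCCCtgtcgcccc
Mmp3 held 1 AP-1 match, TGAGTCA at 46 to 40 bases before the start, 1 PEA3 match and a TATA box. Timp1 had 2 PEA3 matches and 1 GC box, Mmp14 had 1 PEA3 match and 2 GC boxes side by side, and Timp3 had 1 PEA3 match and 1 GC box. None of these 3 windows held the AP-1 letters. Among the members not printed, Mmp12 also held TGAGTCA, at 44 to 38 bases before start 2 of its 2 listed starts. Over all 32851 windows of the same length in the table, 4.46% held the AP-1 letters, 29.5% PEA3, 32.7% a GC box and 7.59% the TATA box. None of the matches overlap in these 4 windows, and a match is only a run of letters.

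Mmp3, stromelysin 1, which cuts proteoglycans, laminin and fibronectin and activates other proenzymes, was high early and low again at day 7. Its log2 signal was 9.46, 8.93 and 8.67 at day 0, 12.62, 12.47 and 11.47 at day 1, 12.20, 12.63 and 12.57 at day 3 and 9.44, 9.98 and 9.96 at day 7. Every day 1 and day 3 array lay above every day 0 and day 7 array, and the day 7 arrays overlapped those of day 0. The change against day 0 was 3.17 ± 0.32 at day 1 (± SE of the limma fit here and below, n = 3 arrays per group, 9.0-fold, adjusted p = 0.00276) and 3.44 ± 0.32 at day 3 (10.9-fold, adjusted p = 0.00105). At day 7 it was 0.77 ± 0.32, which did not pass (adjusted p = 0.0946; 95% interval 0.06 to 1.48) but passed without day 1 replicate 3 (adjusted p = 0.0397). Day 7 itself was below day 3 by a log2 change of -2.67 ± 0.32 (adjusted p = 0.0150), in a comparison where 0.154% of all genes fell. Without day 3 replicate 2 or 3 the adjusted p of that fall was 0.0704 and 0.0857. Day 7 was also below day 1, at -2.40 ± 0.32 (adjusted p = 0.0105), and without day 1 replicate 2 the adjusted p was 0.0556. Between days 1 and 3 the difference was 0.27 ± 0.32 (95% interval -0.44 to 0.99).

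Mmp3 lies in a run of 10 metalloproteinase genes that follow one another on chromosome 9, in the order Mmp13, Mmp12, Mmp1b, Mmp3, Mmp1a, Mmp10, Mmp8, Mmp27, Mmp20 and Mmp7. On each of the 12 arrays the other 9 were dimmer than the median negative control, so no fold change is given for them. Mmp10, stromelysin 2, was the 1 neighbour that passed the limma test, at day 3 (adjusted p = 0.0178), with a mean log2 signal of 5.57 at day 3 and 4.95 at day 0. Mmp13, the main interstitial collagenase of the mouse, had 5.16 to 5.67 at day 7 and 4.42 to 4.67 at day 0. It was below the filter and was not tested.

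**Figure D2:**
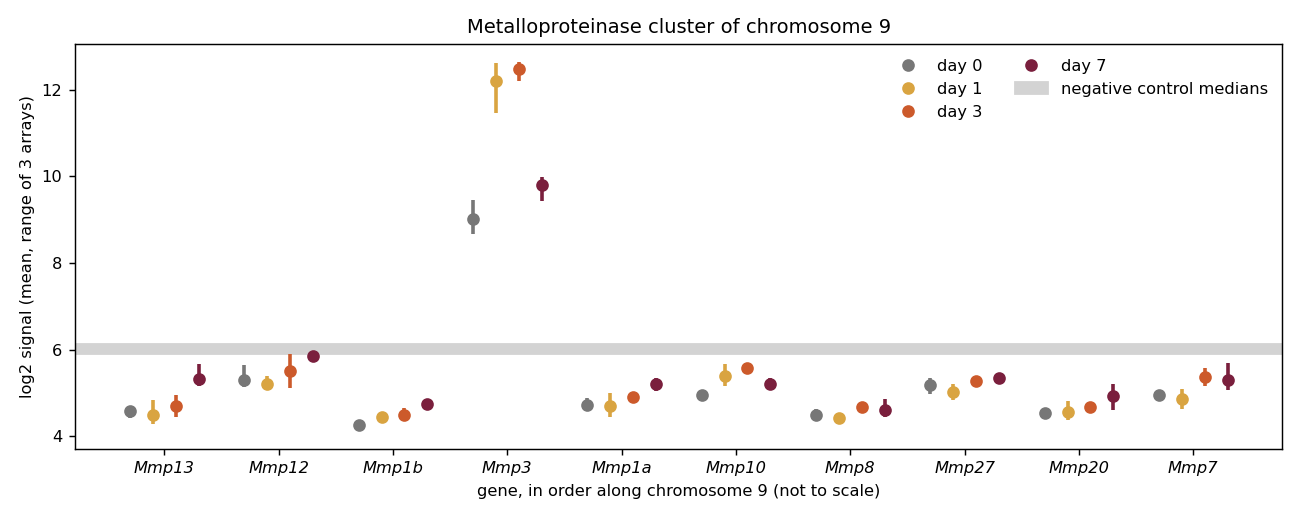
Log2 signal of the 10 metalloproteinase genes in their order along chromosome 9, with distances not to scale. Points are means and lines the range of 3 arrays for days 0, 1, 3 and 7, and the grey band spans the negative control medians of the 12 arrays; Mmp3 alone lies above the band.

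Mmp12, macrophage elastase, had a log2 signal of 5.13 to 5.66 at day 0, 5.12 to 5.40 at day 1, 5.12 to 5.90 at day 3 and 5.82 to 5.93 at day 7. All 3 day 7 arrays lay above the day 0 arrays, but limma gave adjusted p = 0.0691 and the signal stayed under background. Without day 0 replicate 2 or day 3 replicate 1 or 3 it passed (adjusted p = 0.0441 to 0.0481). Mmp9, the gelatinase of neutrophils and macrophages, reached 4.59 to 4.99 over the 12 arrays, under background on each, and was not tested. Of the 7 neutrophil markers, 5 (S100a8, Ly6g, Csf3r, Retnlg and Mpo) lay under background on all 3 arrays at day 0 and 3 (S100a8, Csf3r and Mpo) at day 7. At these levels a change of Mmp9 or Mmp12 may go unseen.

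Mmp2, the gelatinase made by fibroblasts and smooth muscle, stood out at day 7. Its log2 signal was 10.49, 9.79 and 10.64 at day 0, 10.86, 10.93 and 10.59 at day 1, 10.51, 11.15 and 10.64 at day 3 and 11.79, 13.47 and 12.77 at day 7. The 3 day 7 arrays lay above the other 9, while the day 0, 1 and 3 arrays overlapped. Against day 0 the change at day 7 was 2.37 ± 0.39 (5.17-fold, adjusted p = 0.00421), and at days 1 and 3 it was 0.49 ± 0.39 (adjusted p = 0.663) and 0.46 ± 0.39 (adjusted p = 0.445). Against day 1 the change at day 7 was 1.88 ± 0.39 (adjusted p = 0.0343), in a comparison where 1.88% of all genes rose. Against day 3 it was 1.91 ± 0.39 and did not pass (adjusted p = 0.0918), whereas without day 7 replicate 1 it was 2.35 (adjusted p = 0.00914). The rise over day 1 lost its call without day 0 replicate 1 or 3, day 1 replicate 2 or 3, day 3 replicate 2 or 3, or day 7 replicate 2 (adjusted p = 0.0520 to 0.115).

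Mmp14, the membrane-bound collagenase that activates proMmp2, was higher on every treated array than on every day 0 array. Its log2 signal was 7.83, 7.92 and 7.75 at day 0, 8.53, 8.81 and 8.50 at day 1, 8.73, 8.58 and 8.92 at day 3 and 9.17, 10.62 and 9.85 at day 7. The day 7 arrays lay above all others. The change against day 0 was 0.78 ± 0.29 at day 1 (adjusted p = 0.208) and 0.91 ± 0.29 at day 3 (adjusted p = 0.0761), neither of which passed, and 2.05 ± 0.29 at day 7 (4.13-fold, adjusted p = 0.00241). Without day 7 replicate 1 or 2 the day 3 change passed, at adjusted p = 0.0173 and 0.0174. Day 7 was above day 1 by 1.27 ± 0.29 (adjusted p = 0.0446), a call that held without day 1 replicate 1, day 7 replicate 1 or day 7 replicate 3 but was lost without each of the other 9 arrays (adjusted p = 0.0563 to 0.137). It was lost too with arrays centred on their medians (1.02, adjusted p = 0.0577) and with no filter (adjusted p = 0.0528). Without day 7 replicate 1 day 7 also lay above day 3, by 1.49 (adjusted p = 0.0126).

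Mmp19, a secreted protease that cuts basement membrane proteins, had a log2 signal of 6.60, 6.43 and 6.46 at day 0, 7.35, 7.84 and 7.47 at day 1, 7.59, 7.84 and 8.81 at day 3 and 7.44, 8.61 and 7.46 at day 7. Each of the 9 treated arrays lay above the 3 day 0 arrays, and the treated days overlapped. It rose by 1.58 ± 0.37 at day 3 (3.00-fold, adjusted p = 0.0254) and 1.34 ± 0.37 at day 7 (2.53-fold, adjusted p = 0.0289), and the day 1 change of 1.06 ± 0.37 did not pass (adjusted p = 0.167). The day 3 call was lost without any of the day 0 arrays or day 3 replicate 2 or 3 (adjusted p = 0.0576 to 0.0837). The day 7 call was lost without any of the day 0 arrays or day 7 replicate 2 (adjusted p = 0.0667 to 0.0772). With the difference of the control features as covariate the change was 1.70 at day 3 (adjusted p = 0.122) and 1.505 at day 7 (adjusted p = 0.214), and neither passed. The F test over the 3 treated days gave adjusted p = 0.0524 for Mmp19.

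Timp1, the inducible inhibitor of secreted metalloproteinases, rose at all 3 times. It had 6.38, 6.45 and 5.69 at day 0, 8.35, 9.35 and 8.07 at day 1, 8.73, 9.23 and 9.79 at day 3 and 7.78, 8.65 and 7.95 at day 7. All 9 treated arrays lay above the day 0 arrays, of which replicate 3 was under background. The change was 2.41 ± 0.40 at day 1 (5.33-fold, adjusted p = 0.0164), 3.08 ± 0.40 at day 3 (8.44-fold, adjusted p = 0.00383) and 1.95 ± 0.40 at day 7 (3.87-fold, adjusted p = 0.0101). Day 7 was below day 3 on all arrays, by a log2 change of -1.13 ± 0.40 that did not pass (adjusted p = 0.285). With the difference of the control features as covariate the day 7 change was 2.07 (adjusted p = 0.133). The day 1 call was lost without day 0 replicate 2 or 3 or day 1 replicate 1 or 2, at adjusted p = 0.0504 to 0.0741.

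Timp2, the inhibitor that also serves proMmp2 activation, was lower on every treated array than at day 0. It had 12.33, 12.14 and 12.10 at day 0, 11.80, 11.77 and 11.82 at day 1, 11.81, 11.65 and 11.32 at day 3 and 10.97, 11.04 and 11.60 at day 7. The log2 change was -0.39 ± 0.17 at day 1 (adjusted p = 0.298), -0.59 ± 0.17 at day 3 (adjusted p = 0.0566) and -0.99 ± 0.17 at day 7 (0.504-fold, adjusted p = 0.00538), and the last passed. The day 3 change passed without day 7 replicate 1 or 3 (adjusted p = 0.0431 and 0.0199). With the difference of the control features as covariate the day 7 change was -0.63 (adjusted p = 0.190), and the median of genes with a mean signal of 10 to 12 was -0.36 at that time.

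Timp3, the inhibitor that stays bound to the matrix and also blocks ADAM and ADAMTS proteases, had 10.56, 11.02 and 11.01 at day 0, 11.22, 11.15 and 11.15 at day 1, 10.81, 10.85 and 11.39 at day 3 and 8.68, 9.77 and 10.54 at day 7. The day 7 arrays spread widely and lay below all others, the highest of them close to the lowest day 0 array. The change at day 7 was -1.20 ± 0.39 (0.435-fold, adjusted p = 0.0483; 95% interval -2.07 to -0.33), and at days 1 and 3 it was 0.31 ± 0.39 (adjusted p = 0.839) and 0.16 ± 0.39 (adjusted p = 0.804). The call at day 7 held without day 7 replicate 3 and was lost without each of the other 11 arrays, at adjusted p = 0.0569 to 0.122. Without day 7 replicate 1, the array of lowest signal over background, the change was -0.71 (adjusted p = 0.0988), and with the difference of the control features as covariate it was -0.26 (adjusted p = 0.825). The F test gave adjusted p = 0.0656 for Timp3. Day 7 was below day 1 by a log2 change of -1.51 ± 0.39 that did not pass (adjusted p = 0.0549), passed with the replicate block (adjusted p = 0.0407) and was -1.95 without day 7 replicate 3 (adjusted p = 0.0124). Without that array day 7 was also below day 3 (-1.79, adjusted p = 0.0452).

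Timp4, an inhibitor best known from heart and fat, had 7.25 to 8.28 at day 0, 7.09 to 8.09 at day 1, 7.24 to 8.68 at day 3 and 7.74 to 7.84 at day 7. The groups overlapped at every time. Its changes against day 0 lay between -0.18 and 0.12 with an SE of 0.39 (adjusted p = 0.854 to 0.971). The 95% interval at day 7 ran from -0.84 to 0.90, so changes within it were not excluded. A larger change can also miss the call, as did that of Mmp19 at day 1 (1.06 ± 0.37, limma adjusted p = 0.167).

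**Figure D3:**
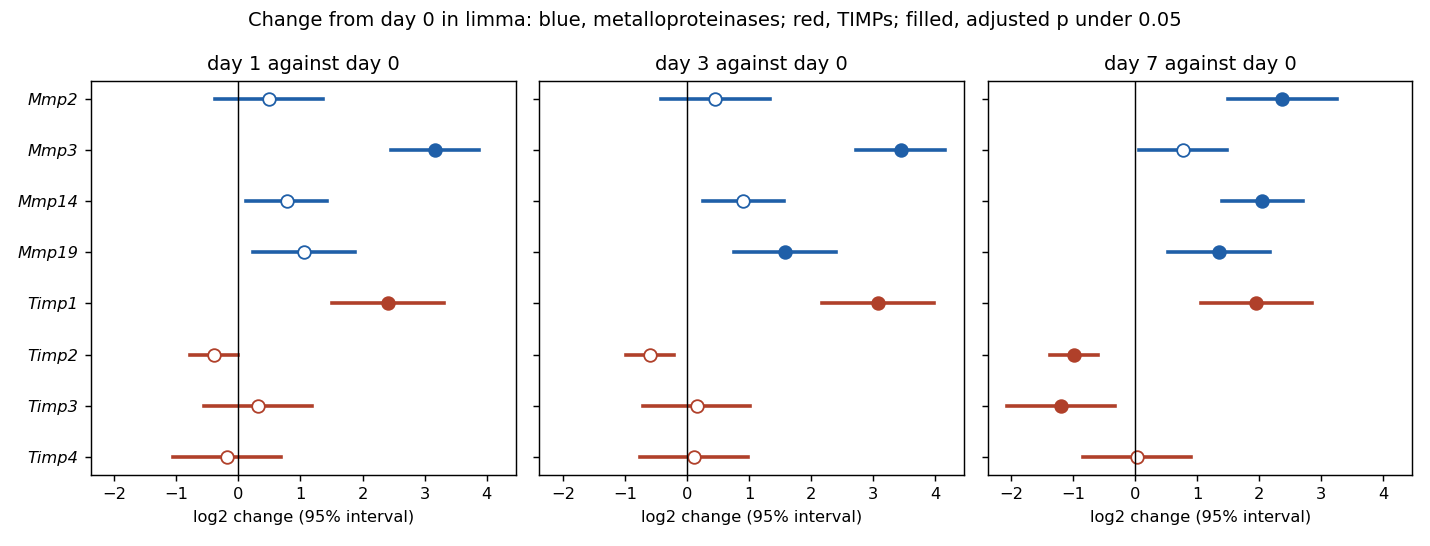
Log2 change against day 0 with its 95% interval from the limma fit for the 8 genes with signal above background on at least 1 array of every group, at days 1, 3 and 7. Blue are metalloproteinases and red TIMPs, and filled points have an adjusted p under 0.05; at day 7 Mmp2 and Mmp14 lie at 2.37 and 2.05 and Timp2 and Timp3 at -0.99 and -1.20.

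The protease to inhibitor balance was followed as change from day 0, since signals of different probes cannot be set against each other. For each array the mean change of the 4 inhibitors was taken from the mean change of the 6 proteases, each gene measured from its own day 0 mean. This balance was -0.05, -0.01 and 0.06 at day 0, 0.62, 0.32 and 0.18 at day 1, 0.13, 0.64 and 0.50 at day 3 and 1.25, 1.48 and 0.93 at day 7. All 9 treated arrays lay above the day 0 arrays, and the day 7 arrays lay above the rest. The mean was 0.37 ± 0.22 at day 1, 0.42 ± 0.26 at day 3 and 1.22 ± 0.27 at day 7 (each mean with its SD over 3 arrays), which is 1.29, 1.34 and 2.33-fold relative to day 0. As the genes were chosen with their changes known, this is a description and carries no p. The balance was not computed with the difference of the control features as covariate, with which only Mmp2 and Mmp14 kept their day 7 calls.

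The balance was made of different genes at different times. The 6 proteases changed on average by 0.91 ± 0.17 at day 1, 1.11 ± 0.21 at day 3 and 1.17 ± 0.37 at day 7, and the 4 inhibitors by 0.54 ± 0.17, 0.69 ± 0.17 and -0.05 ± 0.35 (SD over 3 arrays). The protease mean at days 1 and 3 rests mostly on Mmp3 and at day 7 on Mmp2, Mmp14 and Mmp19, and the inhibitor mean mostly on Timp1, which Timp2 and Timp3 offset at day 7. Without Timp1 the balance was 1.00 at day 1, 1.22 at day 3 and 1.89 at day 7. Without Mmp9 and Mmp12, which lay under background on the day 0 arrays, it was 0.84, 0.91 and 1.68.

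Single pairs of enzyme and inhibitor moved in different ways. Mmp14 minus Timp2, the pair that meets at the cell surface, was 1.17 ± 0.19 at day 1, 1.503 ± 0.39 at day 3 and 3.04 ± 0.78 at day 7 relative to day 0, and its day 7 values were 2.56, 3.93 and 2.61. Mmp2 minus Timp2 was 0.88 ± 0.20, 1.05 ± 0.42 and 3.36 ± 0.84. Mmp3 minus Timp1, in contrast, was 0.75 ± 0.60 at day 1, 0.37 ± 0.38 at day 3 and -1.18 ± 0.34 at day 7, when all 3 arrays (-1.19, -1.52 and -0.84) lay below the day 0 arrays. Mmp3 minus Timp3 was 2.86 ± 0.60, 3.29 ± 0.30 and 1.97 ± 0.68. Mmp9 minus Timp1 is not given as a balance, because Mmp9 was under background.

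**Figure D4:**
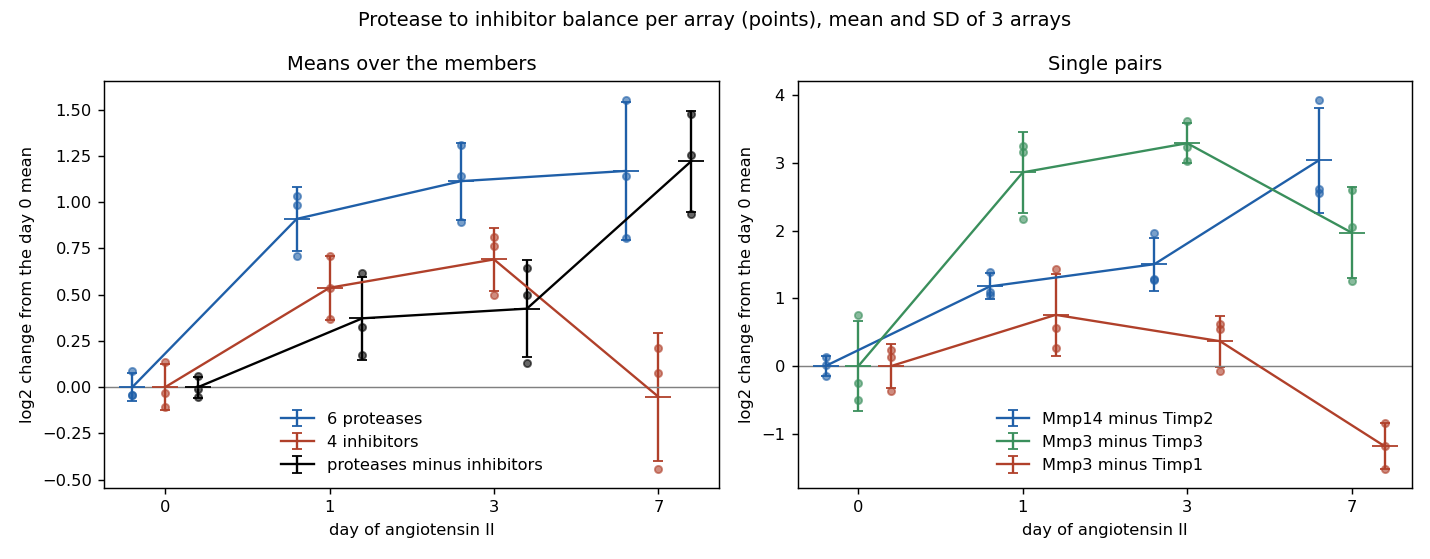
Protease to inhibitor balance against the day of angiotensin II, as log2 change from the day 0 mean, with days spaced evenly. On the left are the means over the 6 proteases, over the 4 inhibitors and their difference, on the right Mmp14 minus Timp2, Mmp3 minus Timp3 and Mmp3 minus Timp1; points are arrays and bars mean and SD of 3 arrays, and the difference on the left is 1.22 at day 7.

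Markers of other cell types moved over the same days. Beside the counts below, limma called 3.62%, 11.8% and 25.2% of all genes at days 1, 3 and 7 against day 0. Up it was 1.99%, 4.61% and 12.1%, and down 1.63%, 7.14% and 13.2%. At day 7 against day 1, 1.88% rose. At an unadjusted p under 0.05 it was 16.4% and 28.2% at days 1 and 3 against day 0. Of 11 macrophage markers measured (Cd68, Adgre1, C1qa and others) 8 rose at day 1, 9 at day 3 and 10 at day 7, and the mean of the list was 7.19 to 7.51 at day 0, 8.66 to 9.32 at day 1, 8.62 to 9.27 at day 3 and 8.35 to 9.43 at day 7. Fcgr1 alone lay under background at day 0. Of 8 fibroblast markers measured 0, 2 and 3 rose at days 1, 3 and 7, and their mean was 12.32 to 13.38 at day 0, 13.51 to 13.87 at day 1, 13.51 to 13.83 at day 3 and 13.70 to 14.60 at day 7. The collagens Col1a1 and Col3a1, given below as substrates too, are on this list and were among those that rose at day 7. Of 8 smooth muscle markers 0, 2 and 7 fell at those times, and their mean was 14.08 to 14.34 at day 0, 12.39 to 13.96 at day 1, 11.72 to 13.00 at day 3 and 9.17 to 11.88 at day 7. Skeletal and cardiac muscle markers set the day 7 arrays apart. Of the 8 measured, 0 rose at day 1, 0 at day 3 and 7 at day 7 against day 0 (limma; 0 and 2 at an unadjusted p under 0.05 at days 1 and 3), and 7 rose at day 7 against day 1. Their mean was 5.83 to 5.97 at day 0, 5.86 to 6.06 at day 1, 6.00 to 6.09 at day 3 and 6.95 to 7.09 at day 7, the day on which Mmp2 and Mmp14 rose. At day 0, 5 of the 8 (Myh6, Myh7, Myl7, Myh4 and Ckm) lay under background on all 3 arrays, and at day 7 only Myh7 did. Of 5 mast cell markers tested 1 rose and 1 fell at day 3 and 3 fell at day 7, and the mean of the 6 measured was 6.63 to 6.67 at day 7 and 7.02 to 7.37 at day 0. Of 6 neutrophil markers tested 2 rose at day 3 and 2 at day 7, and their mean over the 7 measured was 5.63 to 5.87 at day 7 and 5.13 to 5.35 at day 0. Of 7 endothelial markers 1 fell at day 7, and the 5 T cell markers measured lay under background in every group. Of 7 white adipocyte markers 1 rose at day 7, and of 6 brown adipocyte markers tested 1, 1 and 0 rose and 1, 2 and 1 fell at days 1, 3 and 7. The white and brown adipocyte markers together averaged 9.65 to 9.87 at day 0, 8.49 to 9.54 at day 1, 9.07 to 9.18 at day 3 and 9.19 to 9.57 at day 7. In tissue RNA of this kind fewer cells of a type and less RNA per cell cannot be told apart, and the part of macrophage, fibroblast, smooth muscle, striated muscle and mast cell markers in the changes of the members was not tested. With the adipocyte mean as a covariate Mmp3 changed by 2.50 at day 1 (adjusted p = 0.154) and 2.88 at day 3 (adjusted p = 0.0338), and Timp1 by 2.22 at day 1 (adjusted p = 0.391) and 2.91 at day 3 (adjusted p = 0.108). The same covariate ended the calls of Mmp19 at day 3 (1.44, adjusted p = 0.338) and day 7 (1.27, adjusted p = 0.0948) and of Timp3 at day 7 (-1.24, adjusted p = 0.115).

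**Figure D5:**
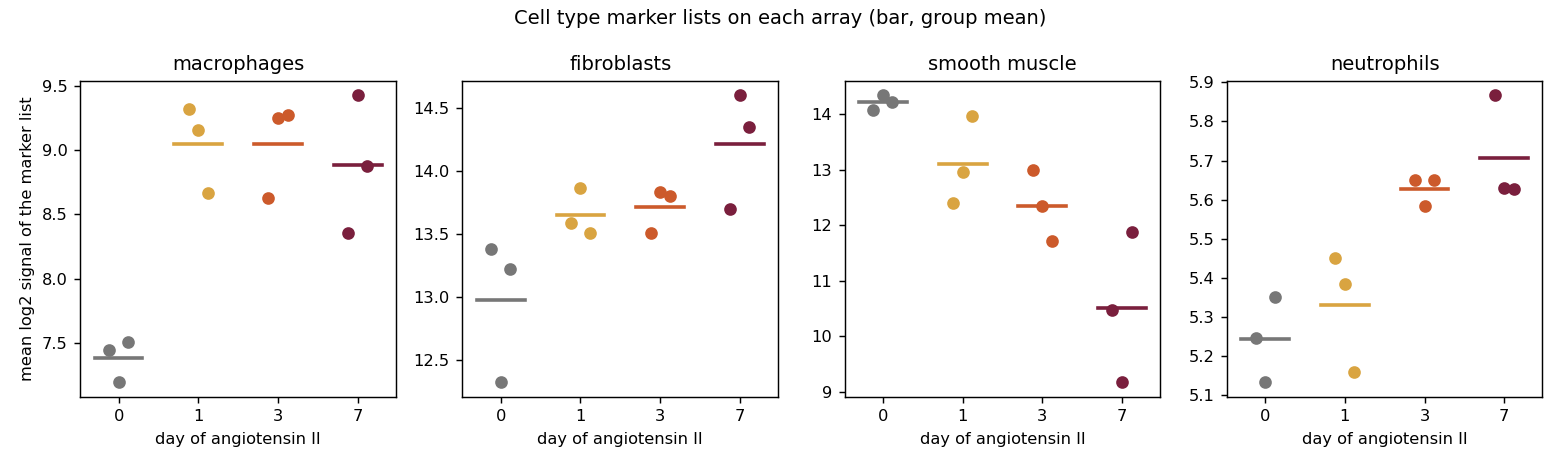
Mean log2 signal of the macrophage, fibroblast, smooth muscle and neutrophil marker lists on each array against the day of angiotensin II, with bars at the mean of 3 arrays. Macrophage markers lie at 7.19 to 7.51 at day 0 and at 8.35 or above on every treated array, and smooth muscle markers at 9.17 to 11.88 at day 7.

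Among 14902 of the 22066 genes tested, without the members and without predicted, clone-like and small RNA symbols, those whose signal followed each called member most closely over the 12 arrays were ranked by Pearson r, as a description over 4 groups that differ in many genes. Mmp3 was closest to Svep1 (r = 0.986), a matrix adhesion protein with mean signals of 8.98, 11.79, 11.90 and 9.85 at days 0, 1, 3 and 7, then to Gas7 (0.978) and F13a1 (0.969), the subunit of coagulation factor XIII made by macrophages. Mmp2 was closest to Slfn5 (0.983), Oas1a (0.977) and the fibrillar collagen Col3a1 (0.976), and Mmp14 to Parp11 (0.990), the cadherin Cdh2 (0.982) and Myo7a (0.972). Timp1 was closest to the chemokine Ccl6 (0.965), Eps8 (0.962) and the leukocyte integrin subunit Itgam (0.958), and Mmp19 to the myeloid gene Ms4a6d (0.971), Marchf3 (0.968) and the haem oxygenase Hmox1 (0.950). Timp2 was closest to Fchsd2 (0.975), Alkbh5 (0.970) and Trmt112-ps2 (0.966), and Timp3 to the flippase Atp10a (0.967), Cers5 (0.940) and Prdx4 (0.938).

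Of the other metalloproteinases 16 of 17 had a cluster of their own and 8 passed the filter. Of these 8, 0 rose or fell at day 1 in limma (3 at an unadjusted p under 0.05, where 16.4% of all genes passed). At day 3, 1 rose and 1 fell, and at day 7, 0 rose and 2 fell. Beside this list and those below, 3.62%, 11.8% and 25.2% of all genes were called at days 1, 3 and 7. Up it was 1.99%, 4.61% and 12.1%, and down 1.63%, 7.14% and 13.2%. No list was tested against these shares. Mmp17, a membrane enzyme held by a lipid anchor, averaged 6.12 at day 3 and 5.87 at day 7, against 6.81 at day 0 (adjusted p = 0.0165 and 0.00288). Mmp16, another membrane enzyme, averaged 5.78 at day 7 and 6.04 at day 0 (adjusted p = 0.0484), and the member that rose at day 3 was Mmp10. Their signals lay under background on 5, 9 and 12 arrays for Mmp17, Mmp16 and Mmp10.

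Of 16 genes that activate proenzymes or whose products take part in it 11 were tested, and 1 rose at day 1, 2 rose and 1 fell at day 3, and 1 rose and 1 fell at day 7. Plau, urokinase, which makes plasmin, rose by 1.34 ± 0.19 at day 1 (adjusted p = 0.0105) and 0.79 ± 0.19 at day 3 (adjusted p = 0.0310), and was 0.15 ± 0.19 at day 7 (adjusted p = 0.574). Cma1, mast cell chymase, rose by 0.57 ± 0.15 at day 3 (adjusted p = 0.0378). Pcsk6, a proprotein convertase, changed by -0.73 ± 0.20 at day 3 (adjusted p = 0.0433) and -0.75 ± 0.20 at day 7 (adjusted p = 0.0265). Klk1, a kallikrein, passed at day 7 (adjusted p = 0.0426) but was under background on all 12 arrays.

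Of 14 other inhibitors and clearance genes 10 were tested. At day 1, 0 were called (4 at an unadjusted p under 0.05, where 16.4% of all genes passed). At day 3, 1 fell, and at day 7, 2 rose and 1 fell. Thbs1, a thrombospondin, had the largest change of the list, 3.57 ± 0.88 at day 1, which did not pass (limma adjusted p = 0.0597). Its changes at days 3 and 7 were 2.55 ± 0.88 and 0.33 ± 0.88 (adjusted p = 0.0954 and 0.792). Reck, a membrane-anchored inhibitor of Mmp2, Mmp9 and Mmp14, averaged 9.80, 10.12, 9.76 and 8.37 at days 0, 1, 3 and 7, and fell at day 7 by a log2 change of -1.43 ± 0.32 (adjusted p = 0.0138). Thbs2, a thrombospondin that carries Mmp2 to its endocytic receptor, changed by -0.99 ± 0.27 at day 3 (adjusted p = 0.0446) and 1.31 ± 0.27 at day 7 (adjusted p = 0.0103). It also differed between days 7 and 3, by 2.30 ± 0.27 (adjusted p = 0.0150). Pcolce, which aids procollagen processing, rose by 0.76 ± 0.20 at day 7 (adjusted p = 0.0250).

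Of 12 partners at the cell surface, all tested, 1 rose at day 1, 1 fell at day 3, and 1 rose and 6 fell at day 7. Cd44, a docking site for Mmp9 and Mmp14, rose by 1.56 ± 0.34 at day 1 (adjusted p = 0.0410). Itgb3, the integrin subunit of the receptor that binds Mmp2, fell by 1.28 ± 0.34 at day 3 (adjusted p = 0.0417) and by 1.95 ± 0.34 at day 7 (adjusted p = 0.00550), and Itgb1 changed by -2.52 ± 0.38 at day 7 (adjusted p = 0.00303). Lcn2, which binds Mmp9, averaged 6.44 at day 7 and 5.05 at day 0 (adjusted p = 0.0255), with 7 arrays under background.

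Of 7 cytokines and growth factors known to induce metalloproteinases that were tested, out of 11, 2 rose at day 1, 2 rose and 1 fell at day 3, and 1 rose and 2 fell at day 7. Il6 averaged 5.09, 7.48, 7.12 and 5.84 at days 0, 1, 3 and 7, with 7 arrays under background, and passed at days 1 and 3 (adjusted p = 0.0424 and 0.0385). Il1b passed at day 7, at 6.04 against 5.14 at day 0 (adjusted p = 0.0137), and lay under background on 11 arrays. Tgfb1 rose by 0.34 ± 0.07 at day 1 and 0.29 ± 0.07 at day 3 (limma adjusted p = 0.0327 and 0.0284). At day 7 its change was -0.14 ± 0.07, which did not pass (adjusted p = 0.138). Tgfb2 changed by -2.45 ± 0.49 at day 3 and -3.31 ± 0.49 at day 7 (adjusted p = 0.0163 and 0.00293), and Fgf2 by -1.09 ± 0.24 at day 7 (adjusted p = 0.0121). Of 10 AP-1, ETS and Runx factors tested, out of 14, 2 rose and 1 fell at day 1. At day 3, 1 rose and 3 fell, and at day 7, 1 rose and 6 fell. Jun, a subunit of AP-1, changed by -2.05 ± 0.26 at day 1, -2.36 ± 0.26 at day 3 and -2.42 ± 0.26 at day 7 (adjusted p = 0.00734, 0.00255 and 0.00112). Fos changed by -2.55 ± 0.45, Jund by -1.63 ± 0.29 and Fosb by -1.49 ± 0.44 at day 7 (adjusted p = 0.00538, 0.00538 and 0.0378). Runx1, which belongs to neither AP-1 nor ETS, rose by 1.16 ± 0.26, 1.00 ± 0.26 and 1.43 ± 0.26 at days 1, 3 and 7 (limma adjusted p = 0.0437, 0.0381 and 0.00618). At days 3 and 7 it was the only gene of this list that rose. Elk3 rose by 0.90 ± 0.14 at day 1 (limma adjusted p = 0.0151). A link of these factors to the members was not tested.

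Of 15 substrates tested, out of 17, 0 were called at day 1 in limma (3 at an unadjusted p under 0.05, where 16.4% of all genes passed). At day 3, 1 rose and 2 fell, and at day 7, 4 rose and 2 fell. Bgn, among these 15, averaged 19.93 at days 0, 1 and 3, the upper end of the scale. A change of it at days 1 and 3 could therefore not be measured. The fibrillar collagens Col1a1 and Col3a1, both also counted among the fibroblast markers, rose by 2.12 ± 0.32 and 2.06 ± 0.35 at day 7 (adjusted p = 0.00285 and 0.00487), on the day Mmp2 and Mmp14 rose. The basement membrane genes Hspg2 (perlecan) and Lama4 changed by -2.48 ± 0.40 and -1.66 ± 0.33 (adjusted p = 0.00399 and 0.00903). Of 5 other TIMP targets tested, out of 8, 1 rose at day 1, 1 fell at day 3 and 1 fell at day 7. The aggrecanase Adamts5, a target of Timp3, rose by 1.33 ± 0.30 at day 1 (adjusted p = 0.0465), and the proteoglycanase Adamts1 changed by -1.56 ± 0.42 at day 3 and -3.66 ± 0.42 at day 7 (adjusted p = 0.0430 and 0.00123).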

How the data were processed

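Total RNA from vessels was hybridised to 12 Affymetrix arrays. The labels name an earlier mouse array, but the identifiers are transcript clusters of another design, so the annotation of that design was used. The deposited values are log2 signals per transcript cluster that, per the submitters' processing notes, came from Affymetrix Expression Console. The sources used here state neither its version nor the background correction or normalization. Values were used as deposited. The scale ends at 19.93, which no member reached. Of 65956 transcript clusters 31258 had 1 gene symbol (older symbols joined through RefSeq), 1492 several and 33206 none; the cluster of highest mean was taken per gene. Genes with at least 3 arrays at or above the 40th percentile of all clusters (5.25) were tested, 22066 of 30702, with limma 3.58.1 in R 4.3.3: all 12 arrays, a mean per group, empirical Bayes and Benjamini-Hochberg adjustment over all genes tested, called at adjusted p under 0.05. Background is the median of 5222 negative control features per array, 5.91 to 6.14. It lay above the filter and, on each array, above the median of all transcript clusters (5.37 to 5.88). Most clusters therefore lie under background, and a gene under background is not thereby shown to be silent. Exact permutation tests (scipy 1.17.1) compared array quality. The labels do not say that a replicate number marks a shared animal, litter or day. Same-numbered arrays of days 1 and 7 deviated together (r = 0.614, 0.364 and 0.662) and those of the other pairs of groups did not in every pair; the main test has no block, and the blocked value stands beside the 1 member call that it changed, Timp3 at day 7 against day 1. The number of arrays limits the precision. The members and lists were chosen with earlier results of these data known. The text names the 10 members, up to 4 called genes per list with the largest change, and the 3 genes of highest r with each called member, with predicted, clone-like and small RNA symbols passed over. Of the AP-1, ETS and Runx factors those that rose are named as well, and so are Tgfb1, Thbs1 and Bgn. Alternatives were another normalization or centring, other filters, the mean of a gene's clusters, variance trend with robust estimation, the replicate block, 2 covariates, the 6 arrays compared alone and leaving out each array.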

Additional observations from a re-analysis of the deposited data

Results flagged for a closer look

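The change of 3 genes against day 0 differed between times by the limma test of the difference itself. Mmp3 stood out at day 7 against day 3, with a log2 change of -2.67 ± 0.32 (limma adjusted p = 0.0150), and at day 7 against day 1, with -2.40 ± 0.32 (limma adjusted p = 0.0105). Mmp2 at day 7 against day 1 changed by 1.88 ± 0.39 (limma adjusted p = 0.0343), and Mmp14 by 1.27 ± 0.29 (limma adjusted p = 0.0446). With the 6 arrays compared alone all 4 calls were lost (adjusted p = 0.153 and 0.178 for Mmp3, 0.201 for Mmp2 and 0.209 for Mmp14), and that of Mmp14 also with arrays centred on their medians (1.02, adjusted p = 0.0577) and with no filter (adjusted p = 0.0528). Calls over all genes also fell under the alternatives other than leaving out an array, among them the fit of the 6 arrays alone. They went as low as 1 at day 7 against day 3, where the main fit had 59. At day 7 against day 1 they went as low as 2, where the main fit had 1056. With an array left out the lowest counts were 10 and 43. In each of the 4 comparisons the 3 arrays of one day lay beyond the 3 of the other. Groups of 3 arrays are too small for a check of single arrays that stand apart.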

How the results depend on the processing

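Over 54 changes of the 9 tested members, 1182 alternative values were computed. Of these 1095 left the call as it was, 64 ended a call, 23 made one and 0 turned the direction of a called change. In the main fit 2, 3 and 6 members were called against day 0, and 0, 1 and 3 between treated days. So most of the 54 changes were uncalled to start with, and only a called change can lose its call. The mean of a gene's clusters could not move a member's change, as each member had 1 cluster. At day 1 against day 0, 2 members were called, 1 to 2 when an array was left out, 0 with the adipocyte mean as a covariate and 1 with only the 6 arrays compared. At day 3, 3 were called, 2 to 5 with an array left out, 1 with the adipocyte covariate and 5 with the 6 arrays alone. At day 7, 6 were called, 4 to 6 with an array left out and 2 (Mmp2 and Mmp14) with the control-feature covariate. Between days 3 and 1 limma called 0 members, 0 at an unadjusted p under 0.05, and 0 under each alternative. Between days 7 and 3, 1 was called, 0 to 3 with an array left out, 2 with the control-feature covariate and 0 with the 6 arrays alone. Between days 7 and 1, 3 were called, 0 to 5 with an array left out and 0 with the 6 arrays alone. With the replicate block the counts were 2, 3 and 6 against day 0 and 0, 1 and 4 between treated days; the added call was Timp3 at day 7 against day 1. Same-numbered arrays correlated at -0.51 to 0.66 in their deviations, above 0.1 in 7 of 18 pairs, which include all 3 pairs of days 1 and 7. The balance ran from 0.25 to 0.47 at day 1, 0.32 to 0.57 at day 3 and 1.09 to 1.36 at day 7 with an array left out. It was 1.00, 1.22 and 1.89 without Timp1, 0.84, 0.91 and 1.68 without members under background at day 0, and 1.496 at day 7 as a difference of medians. The causes were not tested. No member reached the ceiling of the scale, so leaving such members out changes nothing. Over all genes limma called 799, 2593 and 5570 at days 1, 3 and 7 against day 0, with 0 to 1105, 46 to 4523 and 771 to 7471 over the alternatives. At day 7 it called 59 against day 3 and 1056 against day 1, with 1 to 378 and 2 to 3779 over the alternatives.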
